A study of Sus scrofa with 22 samples.

Results

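The genes described here are 60 cell cycle and proliferation genes, of which 17 belong to the G1/S transition, 14 to DNA replication and 23 to mitosis, and 6 code for inhibitors of cyclin-dependent kinases (CDKs). They were taken by name and looked up by NCBI Gene ID in the count tables of 3 cell types of the pig endometrium. The rule holds no threshold on measured values, but the list was drawn up with earlier results of these data known. At least 1 table listed 51 of them, among 12401 listed genes in all. The cells were collected by laser capture microdissection (LCM) on Day 12 and profiled by RNA-seq. They were epithelium of the uterine lumen (LE), epithelium of the glands (GE) and stroma (S). The 8 gilts were crossbreeds of German Landrace and Piétrain, bought before puberty, in which ovulation had been synchronized with PMSG and hCG. The 4 pregnant gilts (01, 03, 05 and 14) had been inseminated with semen and carried filamentous conceptuses. The 4 control gilts (02, 04, 06 and 13) were cyclic and had received only the sperm-free supernatant. LE and GE were represented by 4 libraries per group and S by 3 per group (pregnant 01, 05 and 14, control 02, 04 and 13). S is a mixture of fibroblasts and other cells, and each library was made from the RNA of a small number of captured cells. In such samples a lower share of dividing cells and less RNA per dividing cell cannot be told apart.

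A cell enters division when cyclin D with CDK4 or CDK6, and then cyclin E with CDK2, phosphorylate the retinoblastoma family (RB1, RBL1, RBL2) and release the E2F transcription factors. E2F targets supply the replication machinery, in which the MCM proteins form the helicase, PCNA is the sliding clamp of the polymerases and ribonucleotide reductase (RRM1, RRM2) makes the deoxynucleotides. Later, cyclins A and B with CDK1 start mitosis, kinesins and TPX2 build the spindle, BUB1, BUB1B and MAD2L1 form the spindle checkpoint, and CDC20 and UBE2C serve the ubiquitin ligase that ends mitosis. In resting cells the MuvB core, together with RBL2 and E2F4, represses many mitotic genes through a promoter element called CHR (cell cycle genes homology region). In cycling cells the core works at the same genes with MYBL2 and FOXM1, and NF-Y binds CCAAT boxes next to it. The uterine epithelium is a tissue in which proliferation follows the ovarian steroids and, in pregnancy, signals of the conceptus.

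The 250 bases upstream of the annotated start (RefSeq annotation of Sscrofa11.1) are shown for the 3 members that passed the test in LE (TPX2, TOP2A and PCNA) and for MKI67 and RRM2, the members with the largest log2 fold change (FC) among the other mitosis and replication genes without overlap between pregnant and control LE. They lie at chr17:35431021-35431270 (plus strand), chr12:22001050-22001299 (plus strand), chr17:14142585-14142834 (minus strand), chr14:137296313-137296562 (minus strand) and chr3:126367146-126367395 (minus strand). Capitals mark matches, on either strand, to E2F (TTTCGCGC or TTTGGCGC), CHR (TTTGAA or TTCGAA) and NF-Y (CCAAT) sequences.
TPX2: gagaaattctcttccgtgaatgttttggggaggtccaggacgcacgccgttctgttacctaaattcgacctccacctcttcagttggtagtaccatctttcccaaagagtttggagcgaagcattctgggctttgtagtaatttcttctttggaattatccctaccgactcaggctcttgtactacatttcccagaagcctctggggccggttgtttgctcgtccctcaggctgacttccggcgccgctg
TOP2A: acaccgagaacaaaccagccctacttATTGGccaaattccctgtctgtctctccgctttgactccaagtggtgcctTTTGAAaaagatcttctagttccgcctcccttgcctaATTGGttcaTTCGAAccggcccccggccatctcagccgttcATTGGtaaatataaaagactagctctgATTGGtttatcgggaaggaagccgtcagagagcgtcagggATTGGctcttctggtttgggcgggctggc
PCNA: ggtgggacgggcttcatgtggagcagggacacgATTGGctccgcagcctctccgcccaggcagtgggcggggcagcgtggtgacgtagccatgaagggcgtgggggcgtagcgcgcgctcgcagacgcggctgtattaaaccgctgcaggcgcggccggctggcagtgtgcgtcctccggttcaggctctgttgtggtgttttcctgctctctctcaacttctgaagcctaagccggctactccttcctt
MKI67: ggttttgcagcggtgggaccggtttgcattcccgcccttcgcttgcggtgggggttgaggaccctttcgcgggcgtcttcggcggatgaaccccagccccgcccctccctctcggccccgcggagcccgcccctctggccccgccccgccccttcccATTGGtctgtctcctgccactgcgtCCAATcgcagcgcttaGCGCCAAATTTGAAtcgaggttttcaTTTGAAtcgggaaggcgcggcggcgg
RRM2: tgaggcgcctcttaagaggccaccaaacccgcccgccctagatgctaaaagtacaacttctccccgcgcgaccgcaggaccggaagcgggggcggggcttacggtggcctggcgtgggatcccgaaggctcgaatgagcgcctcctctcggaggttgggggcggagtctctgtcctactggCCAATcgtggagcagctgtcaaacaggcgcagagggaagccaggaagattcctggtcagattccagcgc

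In MKI67, which codes for the proliferation antigen Ki-67, an E2F match stood directly before a CHR match, with 2 CCAAT boxes upstream of them. TOP2A, which codes for the topoisomerase that untangles replicated DNA, held 5 CCAAT boxes and 2 CHR matches in this stretch. In TPX2 the only match, a CCAAT box, lay 13 bases downstream of the start and is thus not in the stretch shown. PCNA and RRM2 held 1 CCAAT box each and no CHR match. Counted in windows of 300 bases (250 before to 50 after the start), CHR matches were found in 68.2% of the 22 listed mitosis genes and in 13.9% of the 12398 listed genes with a window. For CCAAT boxes these shares were 72.7% and 35.2%, and both elements were present in 45.5% and 5.57%. The 11 listed replication genes held CHR matches in 27.3%, CCAAT boxes in 54.5% and E2F matches in 9.09% of the windows, against 1.53% for E2F in all genes. No member window had matches of different motifs that shared bases, whereas 9 of all windows did. These shares describe letters in a window and say nothing on binding in these cells.

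**Figure D1:**
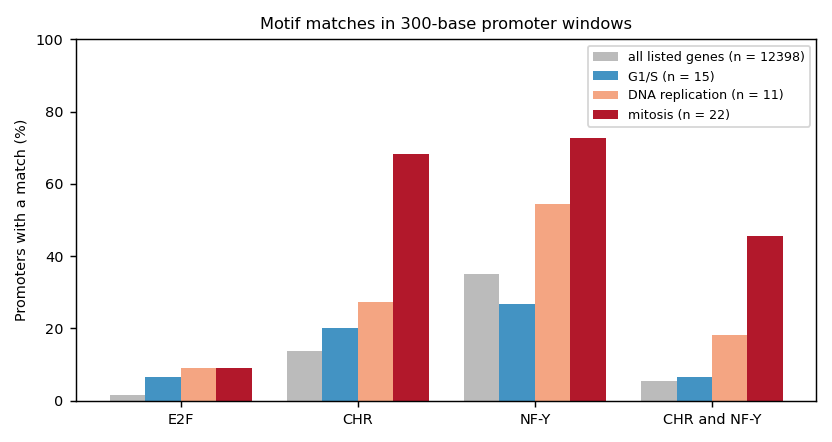
Share of promoters (%) with at least 1 match to E2F, CHR or NF-Y sequences, or to both of the latter, in windows from 250 bases before to 50 bases after the annotated start, for all listed genes (grey) and for the G1/S, DNA replication and mitosis genes. The mitosis genes reach 68.2% for CHR, compared with 13.9% in all listed genes.

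Depth and marker genes are given first, since they touch every comparison. The libraries held 893912 (pregnant LE of gilt 01) to 4020796 counts on listed genes, so that a level of 3 counts corresponds to 0.690 to 3.5 CPM (counts scaled to a common library size). The markers of the cell types did not separate the compartments cleanly. The summed level of 8 epithelial markers (such as EPCAM and CDH1) was 2937 to 3649 CPM in control LE and 2740 to 3267 CPM in control S, and the sum of 8 fibroblast markers (such as COL1A1 and DCN) was 11656 to 17278 CPM in control LE and 4709 to 8645 CPM in control S. Of the leukocyte markers 2 of 9 were listed in all 3 cell types (PTPRC and LAPTM5), and neither CD3E nor CD4 was listed. A pair of libraries stood apart. The library labelled GE of control gilt 02 had the lowest epithelial sum of all (802 CPM) and a fibroblast sum of 46221 CPM, compared with 4359 to 17069 CPM in the other control GE libraries. The library labelled S of pregnant gilt 01 had an epithelial sum of 1191 CPM and a fibroblast sum of 59664 CPM, compared with 8227 to 12106 CPM in the other pregnant S libraries. High fibroblast and low epithelial sums are those that the label stroma implies. The other S libraries had fibroblast sums of 4709 to 12106 CPM and epithelial sums of 2328 to 4248 CPM, and both overlapped those of LE. Values for S without gilt 01 thus rest on libraries that these markers do not set apart from LE. The class medians in GE and S and the joint comparisons are given with and without GE of control gilt 02 and S of pregnant gilt 01.

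Of the 60 genes, 51 were listed in LE, 48 in GE and 39 in S. The 39 genes of the S table were listed in all 3 cell types, of 10643 such genes in all. The 9 genes listed in LE and GE but not in S were CCND2 (cyclin D2) and the mitosis genes CCNA2, CCNB1, CDK1, BUB1, BUB1B, PLK1, CDC20 and UBE2C. E2F1, MCM5 and BIRC5 (survivin) were listed in LE alone. In the mitosis group 9 of 22 genes listed in LE (40.9%) were thus missing from the S table, compared with 13.3% in the G1/S group and 9.09% in the replication group. Over all genes this share was 4.6%. Since low genes were filtered by CPM before deposit, a gene that is not listed was not analysed there, and no level of 0 follows from it. CCNE1, CCNE2, CDC6, CDT1, TK1, CCNB2, CDKN1C, CDKN2A and CDKN2B were listed in no table (CDKN2A had no entry by this name in the annotation used for the look-up). Both cyclin E genes and the MCM loading factors CDC6 and CDT1 were thus not analysed here.

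In LE, the cell cycle genes were mainly higher in the pregnant gilts, most of all the mitosis genes. Of the 51 listed members, 3 passed an FDR (Benjamini-Hochberg, edgeR quasi-likelihood test over all 11415 genes) below 0.01 and were higher in pregnancy, namely TPX2, TOP2A and PCNA, and 0 were lower, against a background of 6.33% higher and 3.71% lower among all genes. The members' share past this threshold was thus close to the background. At an FDR below 0.05, 22 members were higher and 1 was lower, against 12.8% higher and 9.63% lower among all genes. These were 14 of 22 mitosis genes, 6 of 11 replication genes, and E2F1 and RBL1 of the 15 G1/S genes, whereas MYBL2 was the lower one. Without overlap between pregnant and control libraries 14 members were higher and 2 lower, against 14% and 12.7% of all genes. The median log2 FC was 1.76 in the mitosis group, 0.69 in the replication group, 0.24 in the G1/S group and 0.72 in the 3 listed CDK inhibitors, compared with 0.0076 over all genes. Without gilt 01, which had the lowest depth, it was 1.27 in the mitosis group and 0.65 in the replication group, and TPX2, PCNA and RRM2 were past the FDR of 0.01, while TOP2A was not (FDR = 0.0151).

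**Figure D2:**
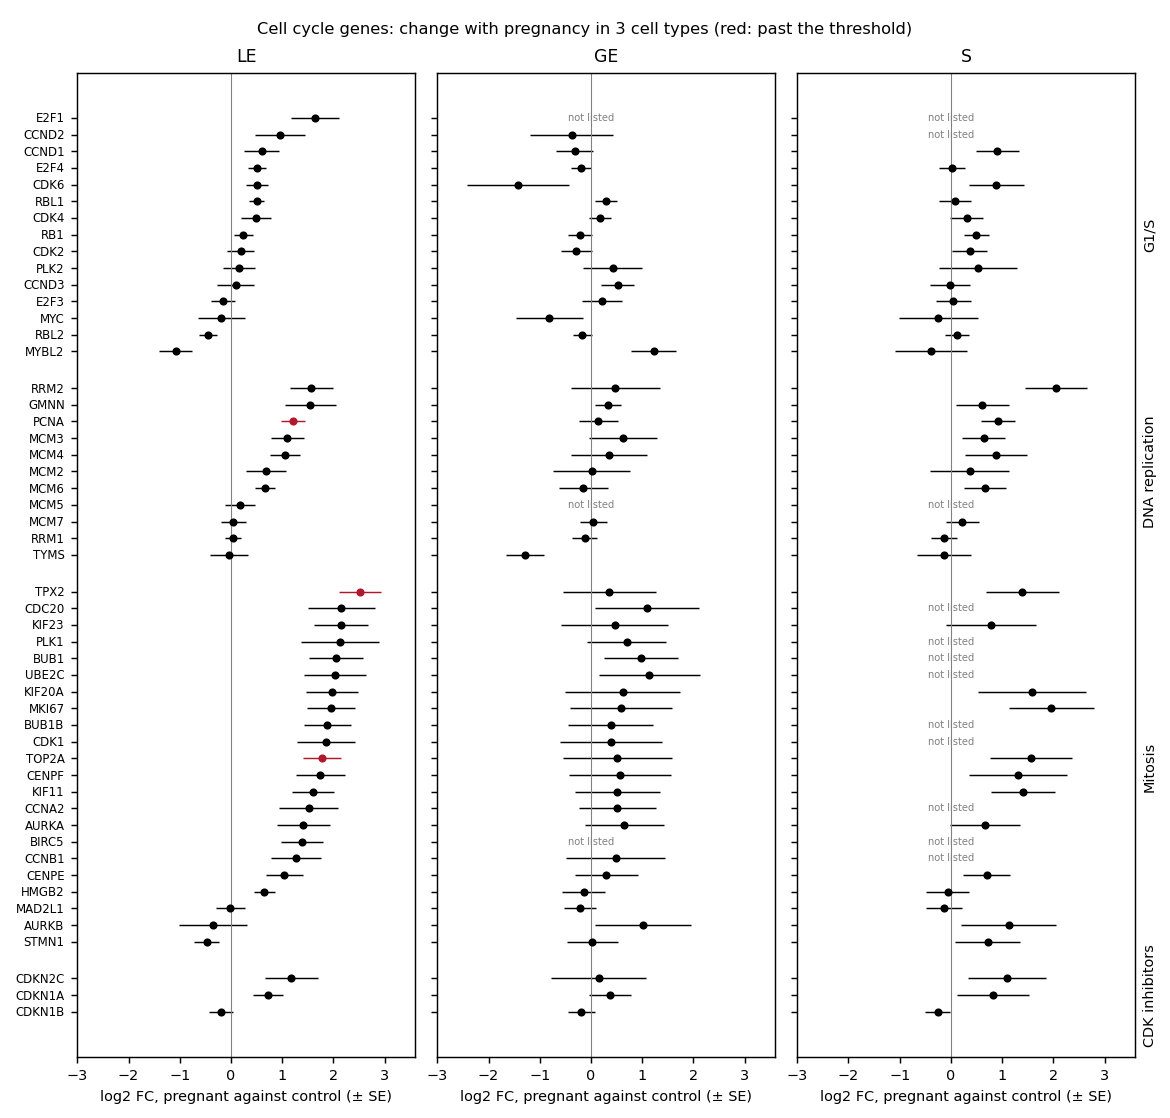
Log2 FC between pregnant and control gilts (points, with SE as bars) of each listed member in LE, GE and S, ordered within 4 classes by the value in LE. Red points are past the threshold of the cell type (FDR below 0.01 in LE, p below 0.0021 in GE and S). In LE, 19 of 22 mitosis genes lie above 0, and in GE and S the bars are wider and no member is past the threshold.

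TPX2, a microtubule-associated protein that activates Aurora A and nucleates spindle microtubules, showed the largest change of all members. In LE its level was 7.01, 11.5, 5.92 and 12.7 CPM in the control gilts 02, 04, 06 and 13, and 92.2, 53.5, 51.4 and 24.1 CPM in the pregnant gilts 01, 03, 05 and 14. The groups did not overlap, with the highest value in gilt 01 and the lowest pregnant value in gilt 14. The log2 FC was 2.51 ± 0.41 (SE, n = 4 per group, FDR = 0.00206), and 2.18 without gilt 01 (FDR = 0.00300). TPX2 was past the threshold with each gilt left out in turn. TOP2A was at 28.4, 52.4, 31.7 and 28.5 CPM in the control and at 170, 75.8, 177 and 65 CPM in the pregnant gilts in the same order. Again all pregnant libraries were above all controls, although gilts 03 and 14 came close to control gilt 04. Its log2 FC of 1.78 ± 0.37 (FDR = 0.00708) was lost as a call with each gilt left out in turn except gilts 03 and 14.

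MKI67 was at 33.2, 31.8, 15.7 and 25.1 CPM in the control and at 208, 67.5, 107 and 37.2 CPM in the pregnant libraries. The groups were separated by a small margin, between control gilt 02 and pregnant gilt 14, and the log2 FC was 1.95 ± 0.47 (FDR = 0.0150). BUB1B, a kinase of the spindle checkpoint, rose at the FDR of 0.05 from 2.78 to 8.12 CPM in the control to 11.6 to 37.4 CPM in the pregnant libraries (log2 FC 1.88 ± 0.46, FDR = 0.0159). KIF11, the kinesin that pushes the spindle poles apart, was at 10.1 to 18.4 CPM in control and 19.4 to 67.7 CPM in pregnant LE (log2 FC 1.60 ± 0.41, FDR = 0.0198). Past the FDR of 0.05, but with overlap between the groups, were KIF23, KIF20A, BUB1, CENPF, BIRC5, UBE2C, CDC20 and CDK1, with log2 FC between 1.38 (BIRC5) and 2.15 (KIF23 and CDC20). CDC20 was at 1.30 without gilt 01 (FDR = 0.0707). HMGB2, a chromatin protein, was the remaining one and did not overlap (log2 FC 0.65 ± 0.20, FDR = 0.0403). CENPE, PLK1, AURKA, CCNA2 and CCNB1 had log2 FC between 1.04 and 2.13 and missed this threshold (FDR between 0.0647 and 0.0892). Exons of KIF20A overlapped those of CDC23 on the opposite strand over 27.1% of their length, and those of CCND3 overlapped TAF8 over 21% likewise, so that their counts are uncertain without a statement on strand.

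The other 3 mitosis genes in LE had a log2 FC below 0 over all gilts. STMN1, which codes for the tubulin-binding protein stathmin, was at 184 to 265 CPM in the control and 93.5 to 203 CPM in the pregnant libraries (log2 FC −0.48 ± 0.24, FDR = 0.176). AURKB, the kinase of the chromosomal passenger complex, was at 35.8 CPM in control gilt 02 and at 5.52 to 8.02 CPM in the other controls, compared with 6.95 to 22.2 CPM in the pregnant gilts (log2 FC −0.34 ± 0.66, FDR = 0.750). Without control gilt 02 the direction turned (0.73 ± 0.47). MAD2L1 was at the same mean of 11.8 CPM in both groups (log2 FC −0.01 ± 0.29).

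**Figure D3:**
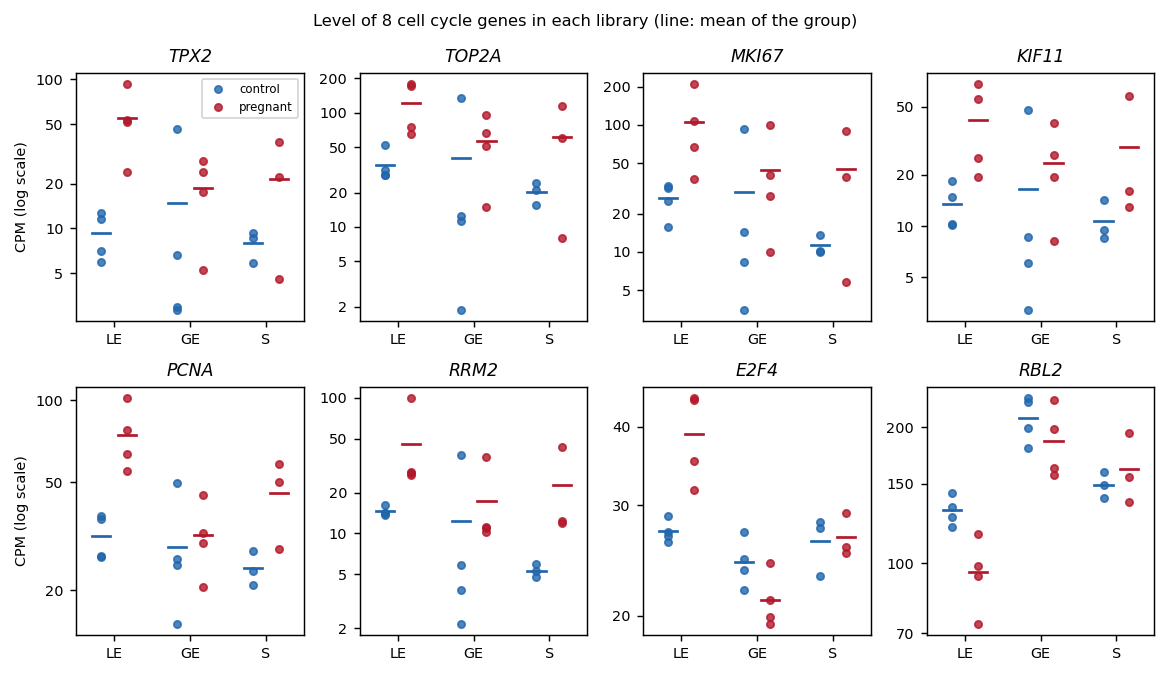
Level in CPM (log scale) of 8 cell cycle genes in each library of LE, GE and S, control in blue and pregnant in red, with the group mean as a line. In LE the pregnant libraries lie above all controls for TPX2, TOP2A, MKI67, KIF11, PCNA, RRM2 and E2F4 and below them for RBL2, and in GE 1 control library (gilt 02) lies apart from the others for the mitosis genes.

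Among the replication genes, PCNA was at 36.5, 26.7, 37.6 and 26.5 CPM in control LE and at 102, 55, 63.5 and 77.8 CPM in pregnant LE. All pregnant libraries were above the controls, and unlike for the mitosis genes gilt 14 was the second highest. The log2 FC was 1.22 ± 0.23 (FDR = 0.00479), and without gilt 01 it was 1.05 (FDR = 0.00668). With gilt 02, 04, 05, 06 or 13 left out PCNA missed the FDR of 0.01 (FDR between 0.0103 and 0.0230). RRM2 was at 13.7 to 16.3 CPM in the control libraries, and at 99.2 CPM in gilt 01 and 26.9 to 28.6 CPM in the other pregnant libraries. It thus stood apart in gilt 01, with a log2 FC of 1.57 ± 0.43 (FDR = 0.0248) over all gilts and 0.93 ± 0.19 (FDR = 0.00806) without gilt 01. MCM4 was at 10.7 to 19.1 CPM in control and 22.8 to 45.5 CPM in pregnant LE (log2 FC 1.06 ± 0.29, FDR = 0.0266). MCM3 (log2 FC 1.10) and MCM6 (0.66) were also past the FDR of 0.05. GMNN, which codes for geminin, the inhibitor of renewed MCM loading, was highest in gilt 05 with 163 CPM, compared with 26.5 to 66.5 CPM in the other pregnant and 21.4 to 32.7 CPM in the control libraries (log2 FC 1.55 ± 0.49, FDR = 0.0468), and without gilt 05 its log2 FC was 0.78 (FDR = 0.138). MCM5, MCM7, RRM1 and TYMS (thymidylate synthase) differed by log2 values between −0.04 and 0.17, with SE between 0.16 and 0.37. Of the helicase subunits, MCM3, MCM4 and MCM6 were thus past the FDR of 0.05 in LE, and MCM2, MCM5 and MCM7 were not. Whether the subunits differed from each other was not tested.

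Of the G1/S genes, E2F1, the E2F best known as an activator, was at 2.67 to 5.90 CPM in control LE and at 28, 9.87, 7.56 and 10 CPM in pregnant gilts 01, 03, 05 and 14 (log2 FC 1.64 ± 0.47, FDR = 0.0317). MYBL2 had the opposite direction. Its level was 29.9, 19.8, 26.8 and 24.6 CPM in the control and 17.5, 8.31, 16.3 and 7.18 CPM in the pregnant libraries, without overlap (log2 FC −1.07 ± 0.32, FDR = 0.0369). MYBL2 codes for B-Myb, the partner of the MuvB core at mitotic genes, and thus was lower in the same libraries in which most mitosis genes were higher. None of the 5 listed MuvB core genes passed an FDR of 0.05 in LE, with log2 FC between −0.53 and 0.27. RBL1 (p107) was past the FDR of 0.05 (log2 FC 0.50 ± 0.15, FDR = 0.0382). E2F4 was higher (31.7 to 44.4 against 26.2 to 28.8 CPM) and RBL2 (p130) lower (73.5 to 116 against 121 to 143 CPM) in every pregnant LE library than in every control, but neither passed the FDR of 0.05 (FDR = 0.0732 and 0.0836). The cyclins D1, D2 and D3, CDK2, CDK4, CDK6, E2F3, RB1, MYC and PLK2 did not pass this threshold, with log2 FC between −0.19 (MYC) and 0.96 (CCND2).

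Of the 6 CDK inhibitors CDKN1A (p21), CDKN1B (p27) and CDKN2C (p18) were listed, each in all cell types, and none passed the threshold in any of them. CDKN1A, which p53 induces, was low and did not overlap between the groups in LE, with 4.52 to 7.75 CPM in the control and 9.07 to 11.4 CPM in the pregnant libraries (log2 FC 0.72 ± 0.29, FDR = 0.109). CDKN2C, an inhibitor of CDK4 and CDK6, was at 78.2 CPM in LE of pregnant gilt 01 and at 13 to 21.8 CPM in the other pregnant libraries, compared with 9.44 to 17.4 CPM in control LE (log2 FC 1.18 ± 0.51, FDR = 0.123). Without gilt 01 its log2 FC was 0.43 ± 0.29. In GE it was at 42 CPM in control gilt 02 and at 2.97 to 5.25 CPM in the other controls, and the sign of its log2 FC of 0.15 ± 0.92 turned with several gilts left out. In S its log2 FC was 1.10 ± 0.76, and 0.33 ± 0.74 without pregnant gilt 01 (25.1 CPM). CDKN1A in S was at 30.3 CPM in pregnant gilt 14 and at 5.51 to 10.8 CPM in the other S libraries (log2 FC 0.82 ± 0.71), and without this gilt its log2 FC was −0.43. CDKN1B was the most abundant inhibitor by length, with 78.2 ± 17.3 CPM per kb of exon in LE, 83.5 ± 22.9 in GE and 79.1 ± 13.8 in S (SD, n = 8, 8 and 6), and its log2 FC was −0.19, −0.19 and −0.26 in LE, GE and S, with SE between 0.24 and 0.26.

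Of 112 other genes of the same pathways and of growth arrest that were listed in LE, 9 were higher and 3 lower at the FDR of 0.01, against 6.33% higher and 3.71% lower of all genes. These counts are close to the background. The largest changes were in genes of arrest or stress as well as of division. SPC24, a subunit of the kinetochore complex, was at 1.11, 2.67, 3.13 and 2.99 CPM in the control and at 54.9, 74.8, 49 and 10.6 CPM in the pregnant gilts (log2 FC 4.19 ± 0.58, FDR = 0.000892). The groups were far apart, with the smallest pregnant value in gilt 14, and the level in control gilt 02 was that of 3 counts. With such low control levels SPC24 may have passed the CPM filter of the authors through the pregnant libraries alone. Its separation would then be set in part by the filter. GADD45A, a growth arrest gene that p53 induces, was at 10.1 to 22.3 CPM in control and 87.5 to 153 CPM in pregnant LE (log2 FC 2.99 ± 0.30, FDR = 0.000157), and its relative GADD45B had a log2 FC of 2.34 ± 0.37 (FDR = 0.00185). BTG3, which codes for an antiproliferative protein, rose from 17.7 to 27.3 CPM to 64.2 to 111 CPM (log2 FC 2.02 ± 0.23, FDR = 0.000313). CKS2, a small subunit of CDK complexes, rose from 32.8 to 47 CPM to 108 to 250 CPM (log2 FC 2.04 ± 0.27, FDR = 0.000690). CCNG2 (an atypical cyclin linked to arrest), PRIM2 (primase), RFC2 (clamp loader) and ORC2 (origin recognition) had log2 FC between 1.09 and 1.28. CKAP2L, a spindle protein, fell by 1.70 ± 0.32 on the log2 scale (FDR = 0.00490), against the direction of most mitosis genes. SESN2, a p53 target like GADD45A, fell by 1.40, and FOXO3 fell by 0.98. The p53 targets were not tested as a set. Of the 31 other mitosis genes listed in LE 27 had a log2 FC above 0 (median 1.05), and 15 were higher at the FDR of 0.05, against 12.8% of all genes. Of the other pathway and arrest genes, 0 of 107 listed in GE and 0 of 102 listed in S were called. Over all genes the shares called were 0.694% and 1.47%, so that these counts are close to the background as well.

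Of the leukocyte markers in LE, 1 was higher in pregnancy. The summed leukocyte level (PTPRC and LAPTM5) was 91.0 to 167 CPM in control and 225 to 295 CPM in pregnant LE, in which LAPTM5 was higher (log2 FC 1.68, FDR = 0.000233) and PTPRC was not (log2 FC −0.90, FDR = 0.0931). The sum of 7 blood endothelium markers was 617 to 933 CPM in control and 630 to 1550 CPM in pregnant LE, with overlap. Among the pregnant libraries it was highest in gilt 01 and lowest in gilt 14, as for the mitosis genes. Their part in the change of the cell cycle genes was not tested.

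In GE, 0 of 48 listed members passed the unadjusted p value of 0.0021 used for this cell type (edgeR), against a background of 0.694% in either direction, and 0 passed an FDR of 0.05. At an unadjusted p value below 0.05, 1 was higher (MYBL2) and 1 lower (TYMS), against 4.74% and 3.35% of all genes, so that these counts were not above the background. No member was without overlap between the groups, compared with 2.72% of all genes higher and 2.2% lower. The library of control gilt 02 lay apart from the other controls. TOP2A was at 135 CPM in this library and at 12.4, 11.4 and 1.89 CPM in control gilts 04, 06 and 13, compared with 95.4, 51, 66.7 and 14.8 CPM in the pregnant gilts. The control libraries thus spanned a wider range than the pregnant ones. Gilt 02 was the highest control in 19 of 21 mitosis genes. The median log2 FC of the mitosis group was 0.52, with a median SE of 0.91. Without gilt 02 it was 1.80, and TPX2 (2.13 ± 0.60), TOP2A (2.76 ± 0.74), MKI67 (2.37 ± 0.78) and RRM2 (2.10 ± 0.61) had log2 FC between 2.10 and 2.76, without passing the threshold. UBE2C, the E2 enzyme of the anaphase-promoting complex, was then the only member past the threshold (log2 FC 3.38 ± 0.69, FDR = 0.2). It was at 0.540 to 1.39 CPM in control gilts 04, 06 and 13, at 16.5 CPM in gilt 02 and at 3.53 to 18.2 CPM in the pregnant gilts. A level of 3 counts is 1.43, 0.833 and 0.810 CPM in control gilts 04, 06 and 13, so that the log2 FC of UBE2C rests on very few counts there. Without pregnant gilt 01, in contrast, the median of the mitosis group was 0.08.

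MYBL2 in GE had the direction opposite to LE, with 40.4, 56.1, 20 and 13.1 CPM in pregnant and at most 17.8 CPM in control libraries (log2 FC 1.22 ± 0.44, FDR = 0.495). TYMS was at 5.13 to 8.84 CPM in pregnant GE and at 22.2, 21, 16.4 and 7.83 CPM in control GE, where only gilt 13 lay within the pregnant range (log2 FC −1.28 ± 0.38, FDR = 0.425). Without gilt 13 it was past the p value of 0.0021 (log2 FC −1.52).

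In S, 0 of 39 listed members were called, against 1.47% of all genes in either direction, and 0 passed an FDR of 0.05. At an unadjusted p value below 0.05 (edgeR) 3 were higher (RRM2, PCNA and MKI67) and 0 lower, against 6.51% and 5.96% of all genes. Without overlap were RB1, PCNA, MCM3 and RRM2, all higher in pregnancy, and 0 were lower, compared with 8.18% higher and 9.38% lower of all genes. RRM2 was at 5.91, 5.26 and 4.76 CPM in control gilts 02, 04 and 13 and at 43.7, 12.4 and 11.9 CPM in pregnant gilts 01, 05 and 14 (log2 FC 2.05 ± 0.60, FDR = 0.245). The smallest pregnant value was thus above each control. TOP2A was at 21.3, 15.5 and 24.5 CPM in the control and at 115, 60.6 and 7.97 CPM in the pregnant libraries, with gilt 14 below all controls (log2 FC 1.56 ± 0.80, FDR = 0.490, and 0.72 ± 0.75 without gilt 01). The median log2 FC of the 13 mitosis genes was 1.13 with a median SE of 0.70, and that of the replication genes 0.63. Without the library of gilt 01, which stood apart by a high fibroblast and a low epithelial sum, these medians were 0.27 and 0.04. The log2 FC of RRM2 was then 1.16 ± 0.40. Without gilt 14, MKI67 (2.49) and TOP2A (2.09) were past the p value of 0.0021 (FDR = 0.0960 and 0.106).

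Over the 13 mitosis genes listed in all cell types, the mean log2 CPM in the pregnant gilts 01, 03, 05 and 14 was 6.25, 5.03, 5.49 and 4.57 in LE and 5.52, 4.79, 4.60 and 3.27 in GE. In S it was 5.47, 4.47 and 3.20 in gilts 01, 05 and 14. Gilt 01 was the highest and gilt 14 the lowest pregnant gilt in each cell type. In GE, gilt 14 was the lowest pregnant library for 20 of 21 mitosis genes, and in LE for 17 of 22. In the control gilts no such order was seen, with values of 4.24, 4.54, 3.89 and 4.10 in LE and 5.55, 3.63, 3.57 and 2.63 in GE for gilts 02, 04, 06 and 13, and 3.65, 3.73 and 4.03 in S for gilts 02, 04 and 13. The replication genes had a narrower range, and gilt 14 was not the lowest there in LE (5.42, compared with 4.91 in gilt 03). GMNN was highest in gilt 05 of all pregnant gilts in each cell type (163 CPM in LE, 34.8 in GE and 83.4 in S).

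**Figure D4:**
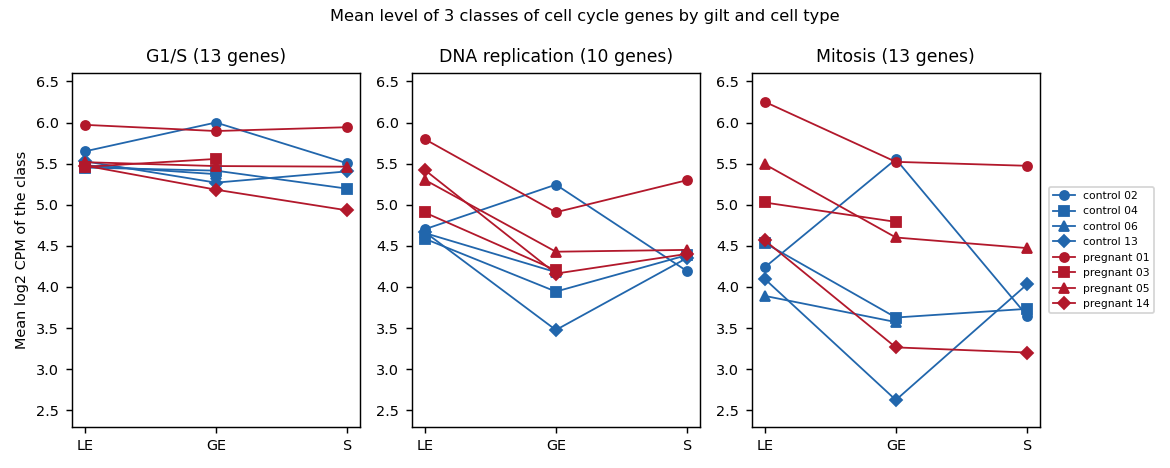
Mean log2 CPM of the G1/S, DNA replication and mitosis genes listed in all cell types, for each gilt in LE, GE and S (lines join the libraries of 1 gilt, red for pregnant and blue for control). For the mitosis genes pregnant gilt 01 is the highest and gilt 14 the lowest pregnant gilt in each cell type, and control gilt 02 has its highest value in GE.

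The blood endothelium markers followed a similar order in GE and in the pregnant libraries of LE and S. In control LE they did not, with the highest sum in gilt 02 (933 CPM) and the highest mitosis mean in gilt 04 (4.54). Nor did they in control S, with the lowest sum in gilt 04 (269 CPM) and the lowest mitosis mean in gilt 02 (3.65). The summed endothelial level in GE was 1276 CPM in control gilt 02 and 1028 CPM in pregnant gilt 01, the libraries with the highest mitosis means, and 65.4 CPM in control gilt 13 and 154 CPM in pregnant gilt 14, those with the lowest. In S it was 1874 CPM in pregnant gilt 01 and 269 to 477 CPM in the other libraries. All 7 markers were higher in GE of control gilt 02 than in the other 3 control GE libraries. The fibroblast markers were also highest in GE of control gilt 02 and S of pregnant gilt 01, while in LE the highest sum was that of pregnant gilt 01 (20635 CPM). In GE their sum had the same extremes as that of endothelium. It was 46221 CPM in control gilt 02 and 29698 CPM in pregnant gilt 01, and 4359 CPM in control gilt 13 and 10303 CPM in pregnant gilt 14. The part of such cells in the level of the mitosis genes was not tested.

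**Figure D5:**
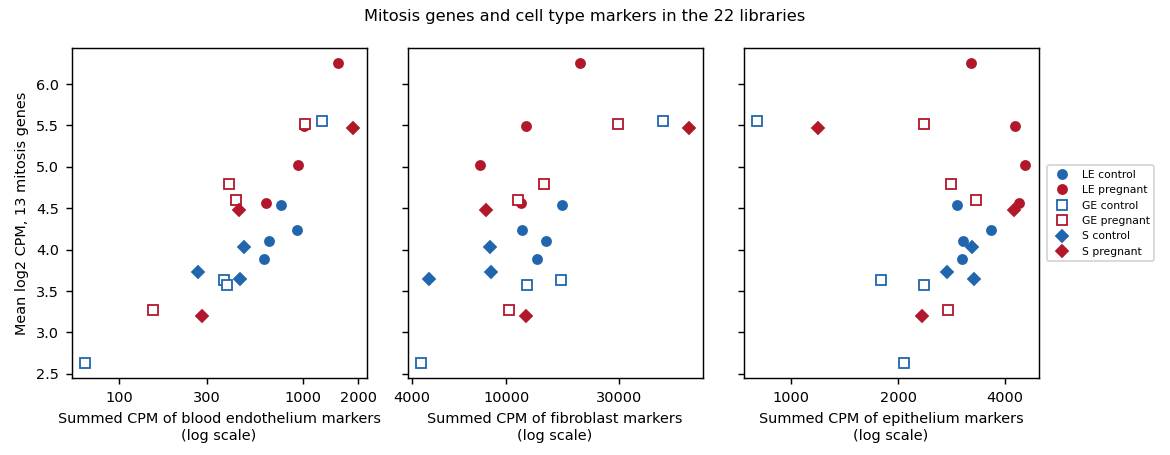
Mean log2 CPM of the 13 mitosis genes listed in all cell types against the summed CPM (log scale) of markers of blood endothelium, fibroblasts and epithelium in each of the 22 libraries. The library of control GE with the lowest mitosis mean (2.63) also has the lowest endothelial sum (65.4 CPM).

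Between cell types, averaged over pregnant and control gilts in a joint fit of the 22 libraries and 10643 genes listed in all tables, GE and LE differed in 3 of 39 members at an FDR below 0.01, with 1 higher and 2 lower in GE, against a background of 7.83% higher and 6.31% lower. All were G1/S genes. RBL2 was higher in GE, with 157 to 241 CPM in GE and 75.9 to 146 CPM in LE on the scale of the joint fit and a log2 difference of 0.82 ± 0.12 (FDR = 0.000165). E2F4, its partner in resting cells, was lower in GE by a log2 difference of −0.52 ± 0.11 (FDR = 0.00172), and E2F3 by −0.77 ± 0.21 (FDR = 0.00976). With gilt 04, 05, 06 or 13 left out RBL2 was the only member called. With the gilt as a fixed replicate block 5 members were called, with GMNN (−0.83 ± 0.18) and MCM2 (−1.52 ± 0.33) in addition, against 20.8% of all genes, and with the gilt as a random effect (limma, duplicateCorrelation) 8, with MCM2, MCM3, RRM2, PCNA and STMN1 in addition, against 23.8%. Without the library labelled GE of control gilt 02 and that labelled S of pregnant gilt 01, 9 members differed, against 17.5% of all genes. RBL2, E2F3 and E2F4 were again among them, and MCM2 (−1.71), MCM3 (−1.33), MCM4 (−1.21), MCM6 (−0.79), PCNA (−0.85) and RRM2 (−1.61) were lower in GE. The median log2 difference of GE to LE was −0.65 in the replication and −0.29 in the mitosis group with all libraries, and −0.89 and −0.99 without these 2. In a fit of LE and GE alone, with 48 members, E2F4, RBL2 and STMN1 were called, against 1530 of all 10851 genes.

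S did not differ from LE (background 0.799%) or from GE (background 0%) in any member at this FDR. Of the members 2 were higher and 5 lower in S than in LE at an unadjusted p value below 0.05 (edgeR), against 12.3% and 8.93% of all genes. In S against GE, 0 were higher and 1 lower, against 4.39% and 3.77%. The median log2 difference in the mitosis group was −0.72 for S to LE and −0.22 for S to GE, and −0.93 and −0.13 without the 2 libraries named above. The response to pregnancy differed between LE and GE, LE and S, or GE and S in 0 members at an FDR below 0.01. In each of these tests, which did not use the pairing by gilt, 0% of all genes did so. The median difference in response (GE minus LE) was −1.08 in the mitosis group with all libraries and 0.43 without these libraries. For S minus LE it was −0.42 and −1.14, and for S minus GE 0.66 and −1.41, so that the sign turned between GE and LE and between S and GE. No member was called in these tests without the 2 libraries either. For TPX2 the difference (GE minus LE) was −2.16 ± 1.04 (FDR = 0.405) and for PCNA −1.07 ± 0.44 (FDR = 0.296), and without these libraries −0.37 and −0.64. The members with the lowest FDR were MYBL2 (2.29 ± 0.70, FDR = 0.149) and E2F4 (−0.72 ± 0.22, FDR = 0.138), whose FDR under the fixed gilt block was 0.0399 and 0.0812, respectively. With the gilt as a random effect (limma) their FDR was 0.0537 and 0.0378, so that neither reached the FDR of 0.01. In a fit of LE and GE alone with this random effect, 36 of 10851 genes and 0 of 48 members differed in response. With such SE the tests do not show that the cell types responded alike.

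Relative to exon length, STMN1, CDKN1B and PLK2, a stress-responsive kinase of the polo family, were the 3 most abundant members in each cell type. STMN1 reached 119 ± 31.3 CPM per kb in LE, 267 ± 152 in GE and 244 ± 180 in S (SD over all libraries, n = 8, 8 and 6). The wide spread in GE and S came with the highest values in pregnant gilt 14 (945 and 964 CPM, without length), the gilt with the lowest mitosis mean in the pregnant group. PLK2 was at 47.1 ± 17.6, 65.4 ± 37.1 and 51.7 ± 38.7 CPM per kb, values that did not differ beyond their spread. In LE, PCNA (47.1 ± 23.9 CPM per kb) was level with PLK2. Classical proliferation markers were lower by length, as for TOP2A with 14.1 ± 11.0 CPM per kb in LE, 8.54 ± 8.26 in GE and 7.01 ± 6.80 in S, and MKI67 with 5.82 ± 5.76, 3.22 ± 3.29 and 2.37 ± 2.69. The SD was close to the mean for both genes.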

How the data were processed

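Pig endometrial LE, GE and S captured by LCM on Day 12 were sequenced from low-input RNA libraries after 15 to 20 PCR cycles. Per the study's methods, the authors removed PCR duplicates by random bases, mapped the reads to Sscrofa 11.1 with Hisat2 and filtered low genes by CPM. They deposited counts per gene, 1 table per cell type. Which tool counted the reads, whether it used strand, and how high the CPM filter was set are not given in the sources used here. Libraries held 893912 to 4020796 counts, and intervals from counting would cover counting error only.

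Counts were tested with the quasi-likelihood test of edgeR 4.0.16 (R 4.3.3, TMM) over all genes of a table. The thresholds were those of the study, an FDR of 0.01 in LE, and 0.0021 for the p value without adjustment in the other cell types. In the study 0.0021 was the p value that corresponded to this FDR in its own LE test. It was not derived again from the LE test used here, so that the thresholds need not match between cell types. Cell types were compared in a joint fit at an FDR below 0.01. Libraries of a number come from 1 gilt, so that numbers pair cell types, not pregnant and control animals. The median correlation of deviations was 0.257 (LE and GE), 0.314 (LE and S) and 0.468 (GE and S) within a gilt and −0.0754, −0.138 and −0.188 between gilts. The script for the tests was checked on simulated data. Members and lists were chosen with earlier results of these data known. Named were members called in any comparison, members without overlap between groups and with a log2 FC of at least 1 in size, the 3 members highest by length, the CDK inhibitors and called pathway genes. Other members were named after their values were seen. Alternatives were other normalizations, filters, tests (DESeq2 1.42.0, limma 3.58.1), thresholds, blocks and left-out gilts. Stroma of gilts 03 and 06 was not analysed here.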

Additional observations from a re-analysis of the deposited data

Results flagged for a closer look

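In 7 of 48 groups of 4 libraries tested, the highest library stood apart from the other 3 by Dixon's ratio. The nominal rate of about 1 in 20 holds for separate groups. These groups shared libraries, so that the count cannot be compared with this rate. In 4 of the 7 the highest was pregnant LE of gilt 01, the library with the lowest depth. There, RRM2 was at 99.2 CPM (26.9 to 28.6 CPM in the other pregnant LE libraries), CDKN2C at 78.2 CPM (13 to 21.8 CPM) and E2F1 at 28.0 CPM (7.56 to 10.0 CPM). The mean log2 CPM of the G1/S genes was 5.97 in the same library, compared with 5.46 to 5.52 in the others. In GE of control gilt 02, CDKN2C was at 42.0 CPM (2.97 to 5.25 CPM in the other controls) and the mean log2 CPM of the CDK inhibitors was 5.28 (4.44 to 4.56). TOP2A was at 52.4 CPM in LE of control gilt 04, compared with 28.4 to 31.7 CPM in the other controls.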

How the results depend on the processing

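In LE, the number of called members was 3, against 10% of all genes. It became 18 with the exact test (17.4% of all genes), 19 with the likelihood ratio test (18.2%) and 19 with DESeq2 (19.1%). It was 23 at an FDR below 0.05 (22.4%) and 0 with only the 6 gilts that had an S library (3.81%). With 1 gilt left out it ranged from 1 to 12, and the share of all genes from 5.15% to 14.4%. The calls thus moved over all genes as well. In GE the number was 0 (0.694% of all genes) and ranged from 0 to 1 with 1 gilt left out (0.36% to 0.856%). In S it was 0 (1.47% of all genes) and became 1 with the likelihood ratio test (4.01%) and 1 with DESeq2 (4.44%). It ranged from 0 to 2 with 1 gilt left out (0.564% to 1.92%). For GE against LE, 3 members were called, against 7.83% higher and 6.31% lower of all genes. They became 5 with gilt as a fixed replicate block (20.8% of all genes), 8 with a random block (23.8%) and 9 without the libraries GE control 02 and S pregnant 01 (17.5%). At an FDR below 0.05 there were 7, and with 1 gilt left out 1 to 4. A fit of LE and GE alone gave 1 of 48 members with the fixed and 6 with the random block, against 1645 and 2255 of all 10851 genes. The block changed the number of called members in no other comparison. The log2 FC of CDKN2C in GE (0.15) turned to −0.14 with only the 6 gilts, and with 1 gilt left out to values from −0.56 to −0.11 (gilts 01, 04, 06 and 13), whereas it was 1.79 without gilt 02. That of CDKN1A in S (0.82) turned to −0.43 without gilt 14 and was at most 1.17 with another gilt left out. The median log2 FC of the members stayed above 0 with 1 gilt left out, from 0.65 to 1.09 in LE, 0.0093 to 0.91 in GE and 0.16 to 0.84 in S. Scaling by library size alone moved the median of all genes in LE from 0.0076 to −0.14, and that of the members to 0.82. The cause of these changes was not tested.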
